A study of Mus musculus with 25 samples.

Results

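The genes of the chemokines and of their receptors were described in the soleus of WT and mD3AKO mice at rest and after a bout of running. The members were all genes of the count table whose symbol begins with Ccl or Cxcl and a digit, or is Ccr or Cxcr with a number, Cx3cl1 or Cx3cr1. These were 56 of 52636 genes, of which 37 encode ligands, 17 encode receptors and 2 are pseudogenes. The choice went by symbol alone and used no measured value, although earlier results of these data were known. Of the 56 members, 27 had enough reads to be tested, 19 ligands and 8 receptors, and the other 29 were counted but not tested.

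RNA was sequenced from the soleus of 12-week-old male and female mice on a C57BL/6 background. All mice carried floxed alleles of Dnmt3a (Dnmt3a flox/flox), with exon 19 between the loxP sites, and the mD3AKO mice, called KO here, also carried Cre driven by the muscle creatine kinase promoter, a promoter that is active in muscle fibers, whereas many chemokine and receptor genes are expressed by leukocytes, vessels and fibroblasts of the muscle. Mice of the exercise groups ran on a treadmill for 30 minutes and were killed 60 minutes later, and the resting mice spent the same 30 minutes in a sham arena. There were 5 WT and 7 KO mice at rest and 7 WT and 6 KO mice after exercise, in all 12 females and 13 males with both sexes in each group, and each library came from 1 mouse named by its number in the labels, so that the tests measure the spread between mice.

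Chemokines are small secreted proteins that bind receptors of the G protein-coupled class on leukocytes and other cells and direct their migration. They are named by the spacing of their first cysteines as CC, CXC and CX3C chemokines. Homeostatic members such as Cxcl12 are made continuously, whereas inflammatory members such as Ccl2 and Cxcl1 are induced by injury or infection and recruit monocytes and neutrophils. Skeletal muscle holds resident macrophages, fibroblasts and capillaries among its fibers, and in injured muscle chemokines guide the entry of monocytes.

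Depth was 22671457 to 37431801 assigned counts per library. The targeted gene separated the genotypes, since Dnmt3a measured 93.4 to 131 CPM (read counts scaled to the size of the library) in the WT mice and 34.6 to 53.9 CPM in the KO mice. Acta1, the actin of skeletal muscle fibers, measured at least 26250 CPM in each library, whereas none of the 8 listed T and NK cell genes had enough reads to be tested and the neutrophil gene Ly6g was at 0 in 24 libraries. Mouse 15, a rested male KO, had the lowest depth, and its library also stood apart from the rest, with a TMM scaling factor of 0.631 against 0.911 to 1.16 in the others. It held 14.3 reads to 1 CPM against 26.4 to 39.8 in the other libraries. Mouse 19, an exercised male KO, stood apart in the members themselves, and the results that rest on it are given with and without it. In whole muscle, fewer cells of a type and less RNA per cell cannot be told apart.

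The bases before the start of transcription are shown for 6 members, 5 on which the exercise and sex results turn and Ccl6, the neighbour of Ccl9. They are the 250 bases before the RefSeq start (GRCm38.p6), 5' to 3' on the strand of the gene, at chr6:117168285-117168534 (plus strand), chr9:120068297-120068546, chr11:83578637-83578886, chr11:83593088-83593337, chr5:92348890-92349139 and chr13:56296552-56296801 (minus strand). Capitals mark matches to short motifs, in order Cxcl12, Cx3cr1, Ccl9, Ccl6, Cxcl10 and Cxcl14.
Cxcl12: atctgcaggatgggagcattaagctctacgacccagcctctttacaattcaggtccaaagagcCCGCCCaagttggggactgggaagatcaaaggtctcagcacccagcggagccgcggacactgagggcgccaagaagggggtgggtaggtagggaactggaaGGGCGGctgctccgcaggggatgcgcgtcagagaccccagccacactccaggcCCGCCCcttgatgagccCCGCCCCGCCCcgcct
Cx3cr1: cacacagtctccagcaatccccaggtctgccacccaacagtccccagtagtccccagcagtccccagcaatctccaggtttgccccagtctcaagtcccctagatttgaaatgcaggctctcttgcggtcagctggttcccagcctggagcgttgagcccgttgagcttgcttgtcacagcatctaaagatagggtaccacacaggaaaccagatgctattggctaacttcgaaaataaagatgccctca
Ccl9: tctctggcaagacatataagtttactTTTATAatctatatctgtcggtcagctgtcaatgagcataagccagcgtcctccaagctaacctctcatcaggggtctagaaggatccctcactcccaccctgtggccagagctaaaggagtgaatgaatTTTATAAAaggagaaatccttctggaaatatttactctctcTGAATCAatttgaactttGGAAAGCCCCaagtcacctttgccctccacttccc
Ccl6: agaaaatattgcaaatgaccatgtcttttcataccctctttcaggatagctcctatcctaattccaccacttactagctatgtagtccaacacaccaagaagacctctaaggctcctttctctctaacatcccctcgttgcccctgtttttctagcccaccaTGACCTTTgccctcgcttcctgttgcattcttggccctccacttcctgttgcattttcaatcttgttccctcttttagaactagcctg
Cxcl10: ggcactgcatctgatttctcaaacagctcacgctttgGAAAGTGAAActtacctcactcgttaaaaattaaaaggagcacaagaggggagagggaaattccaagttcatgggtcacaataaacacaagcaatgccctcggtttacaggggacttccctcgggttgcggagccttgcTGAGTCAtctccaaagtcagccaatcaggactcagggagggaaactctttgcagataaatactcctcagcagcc
Cxcl14: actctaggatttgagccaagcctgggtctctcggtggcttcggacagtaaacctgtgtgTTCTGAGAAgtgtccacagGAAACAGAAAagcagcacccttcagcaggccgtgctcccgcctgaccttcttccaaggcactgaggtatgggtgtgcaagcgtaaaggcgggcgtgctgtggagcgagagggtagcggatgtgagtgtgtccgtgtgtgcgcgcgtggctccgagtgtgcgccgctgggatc

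Of the 56 members, 39 had such a window, among them 19 of the 27 tested. Some, such as Ccl27a, had several windows, and a member counted as matched when any of them held the letters. The percentages given beside these counts are shares of single windows. The motifs were searched on both strands by letters alone, at any place in the window. Each was searched only as the pattern given here, so that a site with other letters was neither counted nor capitalized. The GC box GGGCGG, in 32.7% of all 32851 windows, matched 5 of the 19 tested members, among them Cxcl12 at several places on either strand, with a base shared by the last pair. The TATA box TATAAA, in 12.4% of windows, matched 7 of the 19, among them Ccl9 on both strands, in part over shared bases. The matches of Ccl9 began at -224, -94 and -92 from the start of transcription. The AP-1 site TGANTCA, in 6.75% of windows, matched 3 of the 19 (Ccl9, Cxcl10 and Ccl27a), and the kappaB site (GGG and TTTCC with 2 bases of any kind between), in 1.41%, matched 2 of the 19 (Ccl9 and Cxcl1). The interferon-stimulated response element (GAAA and GAAA with 2 bases between), in 2.98%, matched 2 of the 19 (Cxcl10 and Cxcl14), and the STAT site TTCNNNGAA, in 7.02%, matched 1 (Cxcl14). The NR4A site AAAGGTCA, in 1.34%, matched 1 (Ccl6). The cyclic AMP response element TGACGTCA, in 1.55%, and the estrogen response element (GGTCA and TGACC with 3 bases between), in 0.0639%, matched none of the 19. None of these letters was found in the Cx3cr1 window.

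Soleus expressed few chemokine genes at a high level. Only 3 tested members averaged at least 10 CPM, 14 averaged at least 1 CPM, and Cxcl12 alone made 38.8% to 71.2% of the summed CPM of all members in a library. As CPM per kilobase of exon, the 6 highest averages over the 25 mice were those of Cxcl12 (16.4), the ligand of Cxcr4 that retains and recruits progenitor cells, Ccl11 (15.9), which attracts eosinophils, Cxcl14 (10.5), Ccl6 (5.12), Ccl9 (2.92) and Cxcr4 (1.82), the receptor of Cxcl12. The other 21 tested members lay between 0.0742 (Ccr9) and 1.25 (Cx3cl1) on the same scale, among them the monocyte receptor Ccr2 at 0.834 and the fractalkine receptor Cx3cr1 at 0.264.

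Of the 29 members that were not tested, 5 had no read in any library (Ccl20, Ccl21a, Ccl21b, Ccl27b and the pseudogene Ccl19-ps3), 11 had 1 to 12 reads over the 25 libraries and 13 had more. Ccl17, which binds Ccr4 on T cells, had the most with 180 reads, followed by Ccl12 with 96, the B cell receptor Cxcr5 with 89 and the T cell receptor for Cxcl10, Cxcr3, with 88. The lymphoid homing receptor Ccr7 and the T cell chemokine Ccl5 each had 66. Ccl21b, Ccl27b and Ccl19-ps3 share every stretch of 31 bases of their transcripts with other genes and Ccl21a shares 80.6% of them, so that reads from these stretches cannot be assigned to 1 gene by sequence and a count of 0 there does not measure expression.

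Exercise changed 7 of the 27 tested members by the edgeR quasi-likelihood test at an adjusted p under 0.05, where 10.4% of all 16340 tested genes were called. Cxcl12, the fractalkine receptor Cx3cr1, Ccl27a, a ligand of Ccr10, and the gut-homing receptor Ccr9 fell, and Ccl9 and the interferon-inducible ligands Cxcl10 and Cxcl11 rose. The median log2 fold change of the 27 members was -0.105, against -0.000883 for all tested genes, and 13 of the 27 were positive, against 49.7% of all tested genes. Without mouse 19 the median was -0.179 and 8 of the 27 were positive. The plot of the 7 members and Ccl6 by mouse shows these values.

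**Figure D1:**
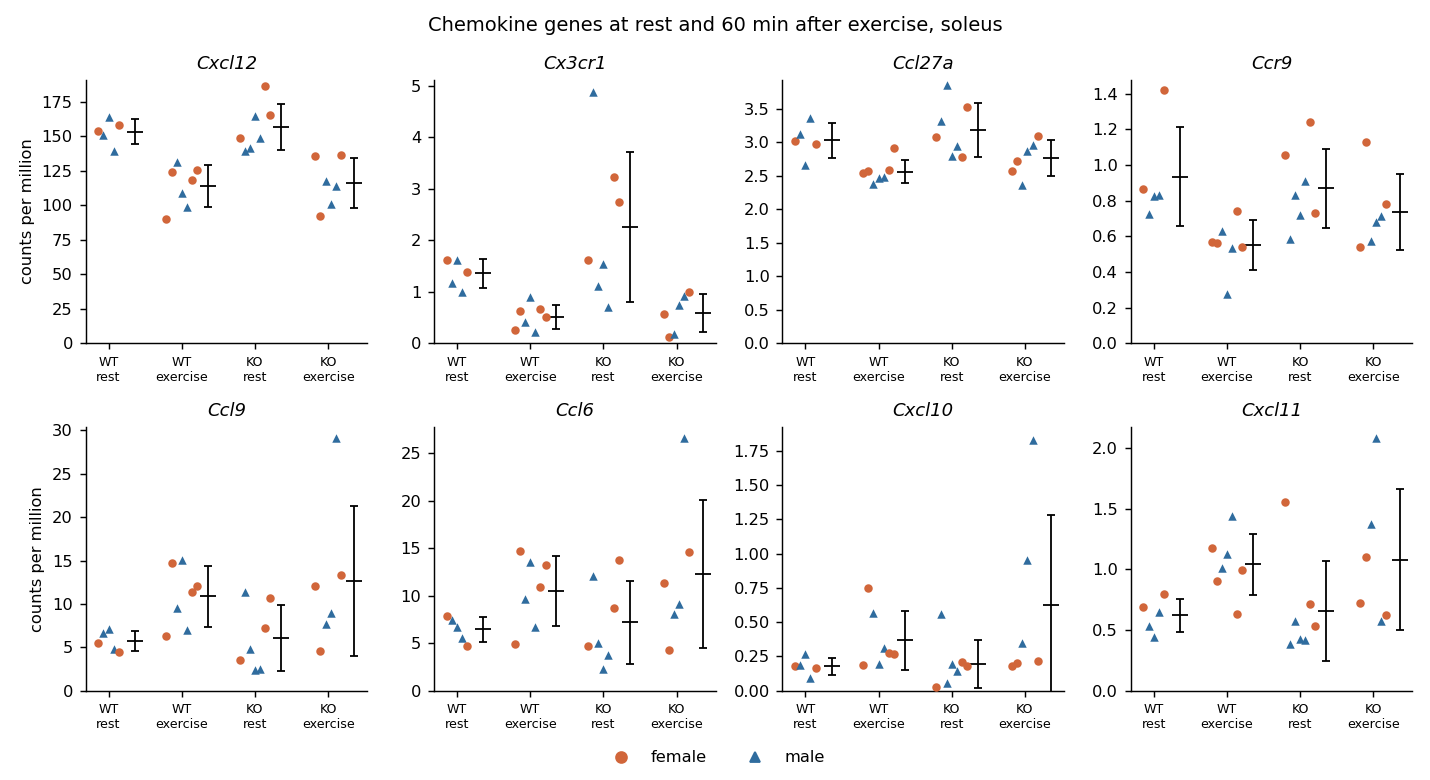
CPM of the 7 members called for exercise and of Ccl6 (y axes, each starting at 0) in each mouse of the 4 groups (x axes), with circles for females and triangles for males. The bar beside each group gives its mean ± SD (drawn from 0 where the SD exceeds the mean), and the 13 exercised mice all lay below the 12 rested mice for Cxcl12.

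Cxcl12 (chr6:117168535-117181367, mm10) was the highest member and the one whose states did not overlap. In the 5 WT mice at rest it measured 140, 151, 154, 159 and 164 CPM, and in the 7 KO mice at rest 140 to 186 with a median of 149 CPM. After exercise it measured 89.9 to 132 with a median of 119 CPM in the 7 WT mice, and 92.2 to 137 with a median of 116 CPM in the 6 KO mice. Each exercised mouse was thus below each rested mouse, in both genotypes and both sexes, a separation seen in 1 of the 27 members and in 1.07% of all tested genes. Mean levels were 155 CPM for the rested mice (SD 13.5, n = 12) and 115 CPM for the exercised mice (SD 16.0, n = 13), a log2 fold change of -0.43 (SE 0.069, edgeR adjusted p = 7.51e-05). The fitted log2 fold change was -0.43 in WT and -0.43 in KO mice, and without mouse 19 it was -0.43 over both. The receptor Cxcr4 and the scavenging receptor Ackr3, which binds and removes Cxcl12, had log2 fold changes of 0.09 (SE 0.13, edgeR adjusted p = 0.783) and 0.06 (SE 0.073, edgeR adjusted p = 0.721).

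Genes of the vessel wall and of fibroblasts, both of which make Cxcl12 in many tissues, were measured beside it. Of 8 endothelial genes, 5 fell (Cdh5, Kdr, Tek, Emcn and Cldn5), Flt1 rose and none was at 0. Of all tested genes 10.4% were called, 767 lower and 932 higher. The summed level of the 8 was 455 to 606 CPM at rest and 422 to 537 CPM after exercise. Kdr, the main VEGF receptor, had a log2 fold change of -0.58 (SE 0.072, edgeR adjusted p = 2.10e-06). Of 8 fibroblast genes none was called and all 8 had negative log2 fold changes with a median of -0.33. Within WT mice 3 of the 8 were positive, with a median of -0.06, and within KO mice all 8 were negative, with a median of -0.44. The sum of the 8 was 1160 to 5640 CPM at rest and 1300 to 3040 CPM after exercise. The part of these cells in the fall of Cxcl12 was not tested, nor was it for any other member.

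Cx3cr1 (chr9:119901616-120069879), the receptor for fractalkine on monocytes, resident macrophages and some NK cells, had the largest fall. In the 5 WT mice at rest it measured 0.988, 1.16, 1.39, 1.61 and 1.62 CPM, and in the 7 KO mice at rest 0.699 to 4.88 with a median of 1.61 CPM. In the exercised groups it was at 0.219 to 0.906 with a median of 0.511 CPM in the 7 WT mice, and 0.133 to 0.998 with a median of 0.662 CPM in the 6 KO mice. The WT states did not overlap, the KO states did by the low value of mouse 15 at rest, and all 13 exercised mice lay below the median of the rested ones. Mouse 7 was the highest at rest. The log2 fold change was -1.66 (SE 0.30, edgeR adjusted p = 0.000294), 0.316 times the resting level, and -1.75 without mouse 19 (SE 0.31, edgeR adjusted p = 0.000288). These levels rest on 4 to 33 reads in an exercised mouse.

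The ligand of this receptor, Cx3cl1, which endothelial cells carry on their surface, had a log2 fold change of -0.19 (SE 0.15, edgeR adjusted p = 0.541) and -0.28 without mouse 19 (SE 0.14, edgeR adjusted p = 0.256). Of the 10 macrophage genes measured as markers, none was called and none was at 0 in all libraries, with a median log2 fold change of -0.03. Their summed levels were 103 to 362 with a median of 191 CPM at rest and 79.3 to 271 with a median of 196 CPM after exercise. The defining macrophage gene Csf1r had a log2 fold change of -0.21 (SE 0.19, edgeR adjusted p = 0.608) and Adgre1 of -0.17 (SE 0.24, edgeR adjusted p = 0.778). Of the other leukocyte lists, 3 had lower median sums after exercise, and the 6 dendritic cell genes had a higher one (56.6 CPM at rest and 72.8 CPM after). The 6 B cell genes summed to 0.693 to 1.82 with a median of 1.10 CPM at rest and 0.319 to 0.824 with a median of 0.538 CPM after exercise, where Cd79b alone had enough reads to be tested and was not called (edgeR adjusted p = 0.114). The 8 neutrophil genes had a median sum of 0.908 CPM at rest (0.459 to 1.58) and 0.319 CPM after exercise (0.171 to 1.37), and the 8 T and NK cell genes one of 0.540 (0.283 to 0.767) and 0.420 CPM (0.0997 to 0.812). The part of these cells in the falls of Cx3cr1, Ccr9 and Ccr2 was not tested. The annotated span of Cx3cr1 holds Csrnp1 and Xirp1 on the same strand, with no exon base shared, and both rose with log2 fold changes of 2.69 and 1.29.

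Ccl27a and Ccr9 also fell. Ccl27a (chr4:41769467-41774247) measured 2.66, 2.98, 3.01, 3.12 and 3.37 CPM in the WT mice at rest and 2.77 to 3.85 with a median of 3.08 CPM in the KO mice at rest. After exercise it measured 2.37 to 2.91 with a median of 2.53 CPM in WT and 2.36 to 3.09 with a median of 2.80 CPM in KO mice. The groups overlapped, with 12 of 13 exercised mice below the resting median, and the log2 fold change was -0.23 (SE 0.067, edgeR adjusted p = 0.0295). The call was lost when library totals alone scaled the counts (edgeR adjusted p = 0.213), with no filter on low counts (0.0976), in females (0.658) and males (0.172) alone, and in 6 of the 25 fits that left out 1 mouse, up to an adjusted p of 0.0635. Of its 31-base stretches 57.0% occur in other genes, among them its copy Ccl27b, so that reads from those stretches cannot be assigned to 1 gene by sequence. How far such reads entered its count was not tested.

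Ccr9 (chr9:123678439-123784330), the receptor of Ccl25, measured 0.724, 0.826, 0.834, 0.865 and 1.42 CPM in the WT mice at rest and 0.587 to 1.24 with a median of 0.834 CPM in the KO mice at rest. Values in exercised mice were 0.275 to 0.742 with a median of 0.562 CPM in WT and 0.543 to 1.13 with a median of 0.698 CPM in KO mice. The groups overlapped, with 12 of 13 exercised mice below the resting median. The log2 fold change was -0.50 (SE 0.16, edgeR adjusted p = 0.0429) and the adjusted p was 0.0558 without mouse 19. The call was lost in 17 of the 25 fits without 1 mouse, at an adjusted p of up to 0.130. Its ligand Ccl25 had a log2 fold change of -0.14 (SE 0.12, edgeR adjusted p = 0.603), and 18.8% of the exon bases of Ccr9 lie in a gene on the opposite strand that averaged 0.0709 CPM.

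Ccl9 (chr11:83572919-83578636) and its neighbour Ccl6 (chr11:83587882-83593087), CC chemokines of rodents made mainly by myeloid cells, had positive log2 fold changes after exercise, Ccl9 past the threshold. Ccl9 measured 4.42, 4.79, 5.52, 6.61 and 7.14 CPM in the WT mice at rest and 2.36 to 11.3 with a median of 4.80 CPM in the KO mice at rest. After exercise it measured 6.24 to 15.0 with a median of 11.4 CPM in WT and 4.52 to 29.1 with a median of 10.5 CPM in KO mice. The groups overlapped, although 12 of 13 exercised mice lay above the resting median and the highest value was that of mouse 19. The log2 fold change was 0.98 (SE 0.27, edgeR adjusted p = 0.0166), and 0.76 without mouse 19 (SE 0.24, edgeR adjusted p = 0.0413). The call was lost with library totals and without mice 15 and 19. It was also lost without mice 11, 13 and 19 (0.87, edgeR adjusted p = 0.0515).

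Ccl6 measured 4.67, 5.53, 6.73, 7.46 and 7.82 CPM in the WT mice at rest and 2.23 to 13.8 with a median of 5.00 CPM in the KO mice at rest. Exercised mice had 4.88 to 14.8 with a median of 10.9 CPM in WT and 4.22 to 26.6 with a median of 10.2 CPM in KO mice. Of the exercised mice 11 of 13 were above the resting median, and the log2 fold change of 0.73 (SE 0.27) missed the threshold at an edgeR adjusted p of 0.0888. Without mouse 19 it was 0.54 (SE 0.25, edgeR adjusted p = 0.207).

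Across mice the levels of Ccl6 and Ccl9 went together. Over log2(CPM + 0.1), Pearson's r was 0.952 in the 12 rested mice and 0.984 in the 13 exercised mice, with permutation p-values of 3e-05 and 1e-05, the second the smallest that 100000 resamples give, and 0.00029 and 0.00022 after adjustment over 22 pair tests. Spearman's rho was 0.951 and 0.984 (permutation p = 2e-05 and 1e-05, both 0.00022 adjusted), and r was 0.939 and 0.967 without the 2 mice farthest from the median of Ccl6. The starts of the 2 genes lie 14963 bases apart, and at most 4.0% of the 31-base stretches of either occur in another gene. The 22 tests covered 11 pairs of tested members whose starts lie within 100 kilobases, at rest and after exercise.

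**Figure D2:**
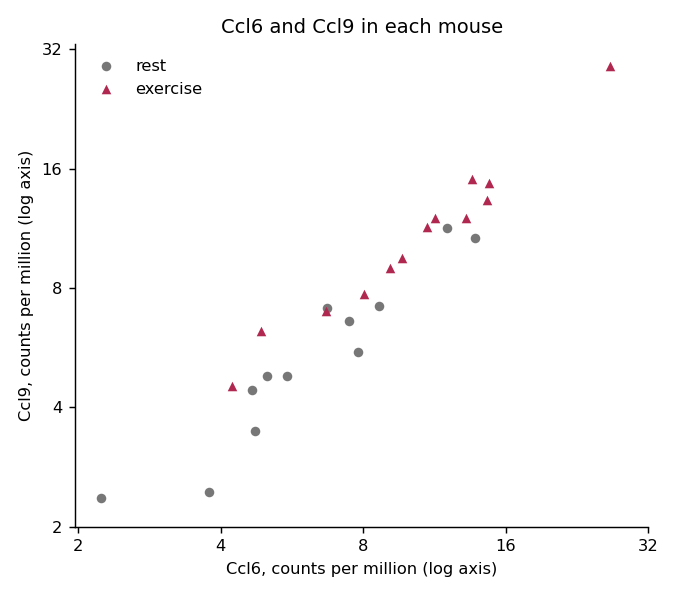
Ccl6 (x axis) against Ccl9 (y axis) in CPM, both on log axes, with 1 point for each of the 25 mice, circles for rest and triangles for exercise. The mice lay along 1 diagonal in both states, and mouse 19 was the highest at 26.6 and 29.1 CPM.

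The interferon-inducible ligands of Cxcr3 lie side by side on chromosome 5. Cxcl10 (chr5:92346638-92348889) measured 0.0926, 0.164, 0.179, 0.189 and 0.266 CPM in the WT mice at rest and 0.0293 to 0.561 with a median of 0.176 CPM in the KO mice at rest. After exercise it measured 0.189 to 0.750 with a median of 0.275 CPM in WT and 0.181 to 1.83 with a median of 0.285 CPM in KO mice, the highest being mouse 19. All 13 exercised mice lay above the resting median although the groups overlapped.

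The log2 fold change of Cxcl10 was 1.30 (SE 0.42, edgeR adjusted p = 0.0457) and 0.94 without mouse 19 (SE 0.37, edgeR adjusted p = 0.121), and 15 of the 25 fits without 1 mouse lost the call. These levels rest on 1 to 54 reads. Art3, on the opposite strand over 5.91% of the exon bases of Cxcl10, averaged 91.5 CPM and had a log2 fold change of -0.03 (edgeR adjusted p = 0.893).

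Cxcl11 (chr5:92359544-92365485) measured 0.443, 0.535, 0.648, 0.686 and 0.792 CPM in the WT mice at rest and 0.383 to 1.55 with a median of 0.528 CPM in the KO mice at rest. In the exercised groups it was at 0.632 to 1.44 with a median of 1.01 CPM in WT and 0.577 to 2.08 with a median of 0.910 CPM in KO mice. All 13 exercised mice were above the resting median although the groups overlapped, and the log2 fold change was 0.71 (SE 0.23, edgeR adjusted p = 0.0474) with mouse 19 and 0.77 (SE 0.23, edgeR adjusted p = 0.0292) without it. Over all mice left out singly the call was lost in 19 of 25 fits, with an adjusted p of up to 0.116. In females alone the log2 fold change was 0.06 (SE 0.29) and in males alone 1.34 (SE 0.26), and the difference between the sexes was not tested. Of its 31-base stretches 42.2% occur in other genes, and 41.7% of its exon bases lie in a gene on the opposite strand that averaged 0.00481 CPM.

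Cxcl9, the remaining member of this trio, had a log2 fold change of 0.39 (SE 0.30, edgeR adjusted p = 0.530), with medians of 0.792 CPM in WT at rest, 0.871 CPM in WT after exercise, 0.661 CPM in KO at rest and 0.881 CPM in KO after exercise. Across mice, Pearson's r of Cxcl10 with Cxcl11 was -0.674 at rest (permutation p = 0.025, 0.079 adjusted; rho -0.49, permutation p = 0.11) and -0.19 without mice 2 and 7, and after exercise r was 0.00416 (permutation p = 0.99). Their common receptor Cxcr3 had too few reads to be tested.

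The receptor of inflammatory monocytes was lower in most exercised mice, and its test depended on single mice. Ccr2 (chr9:124101950-124113557), the receptor of Ccl2, measured 4.72, 4.86, 5.42, 5.52 and 6.12 CPM in the WT mice at rest and 2.93 to 23.5 with a median of 5.38 CPM in the KO mice at rest. After exercise it measured 1.82 to 8.94 with a median of 3.12 CPM in WT and 1.33 to 15.7 with a median of 2.26 CPM in KO mice. Of the 13 exercised mice 11 were below the resting median, and the exceptions were mice 5 and 19.

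The log2 fold change of Ccr2 was -0.72 (SE 0.39, edgeR adjusted p = 0.295) and -1.19 without mouse 19 (SE 0.33, edgeR adjusted p = 0.0199). Without the rested WT mice 11 and 13 as well it was -1.17 (SE 0.37, edgeR adjusted p = 0.0524). Over the 25 fits without 1 mouse the log2 fold change ranged from -1.19 to -0.48, with an edgeR adjusted p of 0.0199 to 0.532. Mouse 7 had the highest level of the rested KO mice at 23.5 CPM, with the next at 11.6 CPM.

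Without mouse 19, 9 members were called for exercise, where 10.3% of 16305 genes were. Cxcl11 and Ccl9 were higher, and Cxcl12, Cx3cr1, Ccl27a, Ccr2, Ccl7 and Cxcl1 were among those lower. The monocyte attractant Ccl7 then had a log2 fold change of -1.67 (SE 0.45, edgeR adjusted p = 0.0158) and the neutrophil attractant Cxcl1 of -1.31 (SE 0.36, edgeR adjusted p = 0.0188), against -0.43 (SE 0.60, edgeR adjusted p = 0.776) and -0.49 (SE 0.48, edgeR adjusted p = 0.644) with it. These were named after their values were seen. The rested WT mice 11 and 13 held 1.04 and 1.42 CPM of Ccl7 against 0.124 to 0.209 in the other 3, and 1.23 and 2.18 CPM of Cxcl1 against 0.300 to 0.358. Without mice 11, 13 and 19 neither was called, with log2 fold changes of -0.77 for Ccl7 (SE 0.42, edgeR adjusted p = 0.358) and -0.59 for Cxcl1 (SE 0.29, edgeR adjusted p = 0.274), and 4 members were called, where 8.45% of all genes were.

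Mouse 19 had the highest level of the 25 mice for 10 of the 27 tested members, among them Ccl2, Ccl6, Ccl7, Ccl9, Cxcl1, Cxcl10, Cxcl14, Ccr1 and Cxcr6. Ccl2, the main monocyte attractant, measured 10.6 CPM from 312 reads there and at most 0.436 CPM in the other 5 exercised KO mice. Ccl7 measured 3.60 CPM against at most 0.211, Cxcl1 2.51 against at most 0.319 and Ccr1 5.43 against at most 0.842 CPM.

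Members below the filter were also high in this mouse. It held 39 of the 44 reads of the neutrophil attractant Cxcl5, 68 of the 180 reads of Ccl17 and 22 of the 77 reads of Ccl22. Cd68, a lysosomal protein of macrophages, measured 32.4 CPM in this mouse and at most 7.15 CPM in the other 24 (4.12 in the other 5 exercised KO mice), and the cytokine gene Il1b measured 1.53 CPM there and at most 0.317 CPM in the other 24 (0.0935 in the other 5 exercised KO mice). The summed level of the 10 macrophage genes, Cd68 among them, was 264 CPM there, within the range of the rested mice. The summed neutrophil list was 1.09 CPM, the highest of the exercised KO mice (0.171 to 0.810 in the others) and within the range at rest, with Ly6g at 0. The summed leukocyte adhesion genes at 45.0 CPM and the summed cytokine and NF-kappaB feedback genes at 226 CPM were the highest of the 25 mice.

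**Figure D3:**
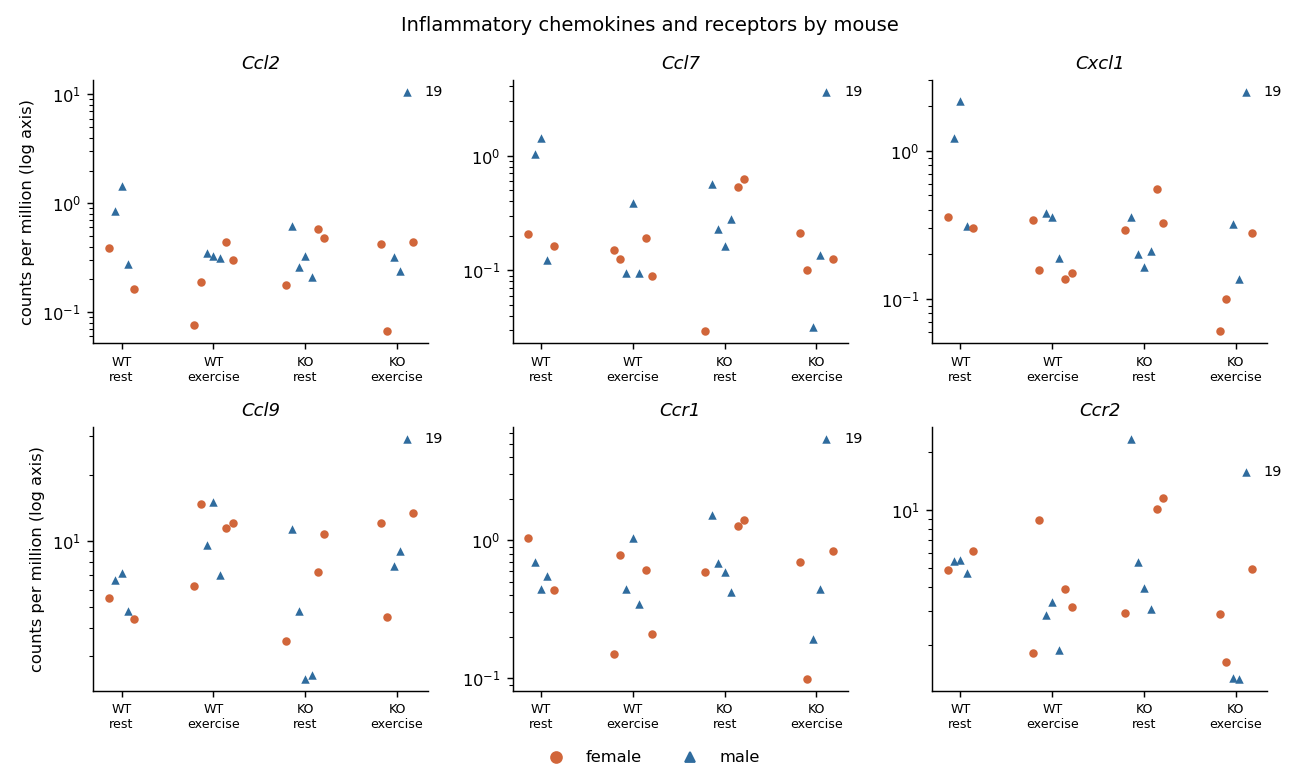
CPM on log axes of Ccl2, Ccl7, Cxcl1, Ccl9, Ccr1 and Ccr2 in each mouse of the 4 groups, with circles for females and triangles for males, and mouse 19 marked. Mouse 19 lay above the other 5 exercised KO mice in each panel, with 10.6 CPM for Ccl2.

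At rest, Ccl2 and its neighbour Ccl7, whose starts lie 10141 bases apart, also varied together. Among the WT mice at rest, mice 11 and 13 had Ccl2 levels of 0.850 and 1.45 CPM against 0.164, 0.278 and 0.388 in the other three, and Ccl7 levels of 1.04 and 1.42 CPM against 0.124, 0.164 and 0.209. The same mice had Cxcl1 levels of 1.23 and 2.18 CPM against 0.300, 0.309 and 0.358. Over the 12 rested mice r of Ccl2 and Ccl7 was 0.909 and rho 0.832 (permutation p = 4e-05 and 0.0014, 0.00029 and 0.01 adjusted), and r was 0.804 without mice 11 and 13. Over the 13 exercised mice r was 0.881 (permutation p = 0.025, 0.079 adjusted) and 0.0756 without mice 6 and 19.

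Responses to exercise were also fitted within each genotype, in one model. In WT mice Cxcl12 alone was called (3.59% of all tested genes were), and in KO mice Cxcl12 and Cx3cr1 were (6.02%). Without mouse 19, 2 members were called in WT mice (Cxcl12 and Cxcl1, with 3.78% of all genes) and 4 in KO mice (4.84%), among them Cxcl12, Cx3cr1 and Ccr2. Without mice 11, 13 and 19, 0 were called in WT mice (2.71% of all genes), where Cxcl12 was at -0.40 (SE 0.12, edgeR adjusted p = 0.0891), and 4 in KO mice (4.56%). The log2 fold change of Cx3cr1 was -1.37 in WT (SE 0.43, edgeR adjusted p = 0.0815) and -1.95 in KO mice (SE 0.41, edgeR adjusted p = 0.00331), and the difference of -0.58 between them (SE 0.60) had an edgeR adjusted p of 1.00. The plot of responses by genotype shows 26 tested members.

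**Figure D4:**
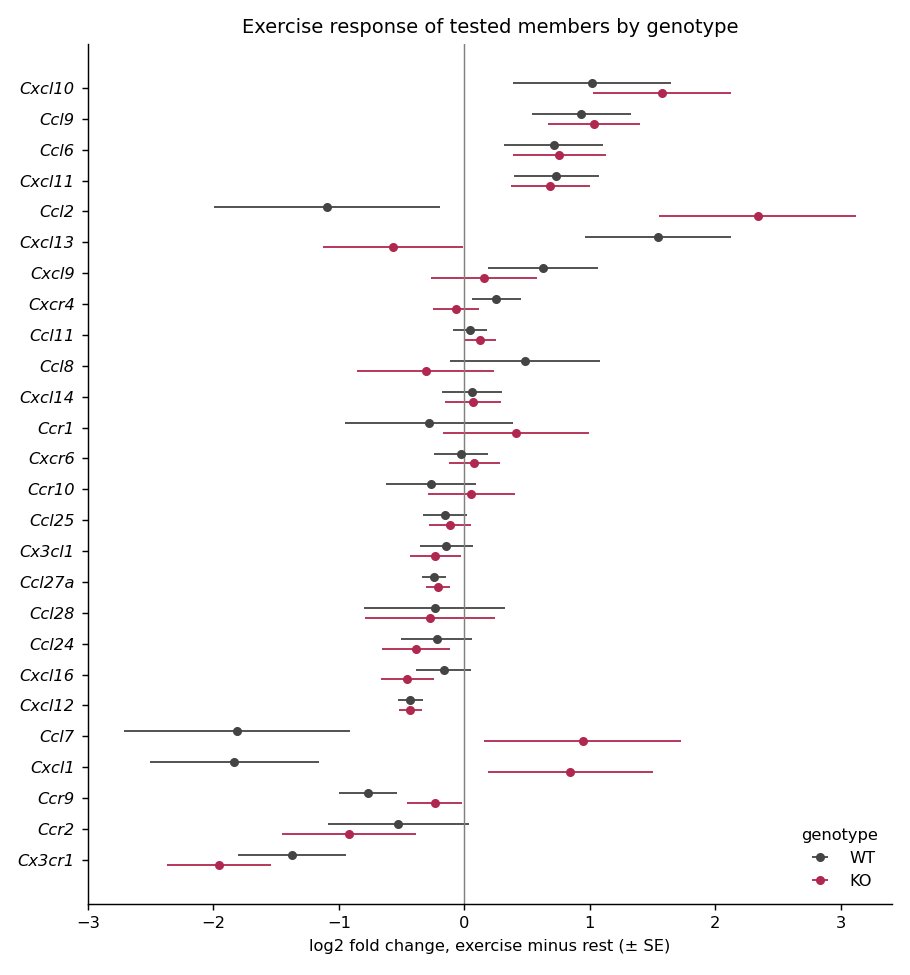
Log2 fold change of exercise minus rest (x axis, ± SE from edgeR) in WT and KO mice for 26 tested members (y axis), ordered by the response over both genotypes. Cxcl12 had the same value of -0.43 in both genotypes, and the widest gaps were those of Ccl2, Ccl7 and Cxcl1.

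No member passed the test of a difference in response between the genotypes, and neither did any gene (0% of all tested genes called). By edgeR 4 members had an unadjusted p under 0.05 (2.47% of all tested genes did), and DESeq2 also called 0 members with 4 under an unadjusted p of 0.05. They were Ccl2 (difference in log2 fold change 3.43, SE 1.19), Cxcl1 (2.68, SE 0.94), Ccl7 (2.75, SE 1.20) and Cxcl13 (-2.11, SE 0.81), all at an edgeR adjusted p of 1.00. Without mouse 19 the differences were 0.71 (SE 0.67), 1.06 (SE 0.75), 0.28 (SE 0.98) and -2.13 (SE 0.85). Cxcl13, the B cell attractant, kept an unadjusted p under 0.05 by edgeR, as 1 of 27 members, and was not called. Its levels rest on 0 to 17 reads in a mouse.

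The knockout of Dnmt3a in muscle fibers changed none of the 27 tested members by edgeR, where 0.269% of all tested genes were called. Unadjusted p-values were under 0.05 for 3 members by edgeR (6.23% of all tested genes) and for 3 by DESeq2, which also called 0. At rest 0 members were called (0.0918% of all genes), with 1 under an unadjusted p of 0.05 by edgeR (3.65% of all genes) and 1 by DESeq2, and after exercise 0 were called (0.110% of all genes), with 5 by each tool, where 5.51% of all genes had an unadjusted p under 0.05 by edgeR. Without mouse 19, the 5 became 0 by edgeR. DESeq2 called 0 members in both. The median log2 fold change of the members between genotypes was 0.136, with 19 of 27 positive, against 0.00701 and 53.4% positive over all tested genes. Without mouse 19 the median was 0.0245 with 16 of 27 positive, and 1 member had an unadjusted p under 0.05 by edgeR.

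Large differences between genotypes were seen in genes that were high in mouse 19. Ccl2 had a log2 fold change in KO over WT mice of 1.05 (SE 0.60, edgeR adjusted p = 0.899) and Ccr1 of 0.94 (SE 0.44, edgeR adjusted p = 0.786). Without mouse 19, Ccl2 was at -0.31 and Ccr1 at 0.20. Ccr1, a receptor of Ccl9 among others, measured 0.437, 0.443, 0.556, 0.693 and 1.04 CPM in the WT mice at rest, and its medians were 0.443 CPM in WT after exercise, 0.690 CPM in KO at rest and 0.569 CPM in KO after exercise, with overlapping groups. The lowest log2 fold changes were those of Cxcl9 (-0.24, SE 0.30), Cxcl1 (-0.14, SE 0.48) and Cx3cl1 (-0.09, SE 0.15). Without mouse 19 they were -0.26 (SE 0.32), -0.95 (SE 0.37, unadjusted p = 0.0155, edgeR adjusted p = 0.620) and -0.17 (SE 0.14). With the rested WT mice 11 and 13 left out as well, Cxcl1 was at -0.24 (SE 0.29). Cx3cl1 measured 3.85, 5.1, 5.25, 5.54 and 6.85 CPM in the WT mice at rest, and 2.94 to 6.85 CPM in the 12 WT mice against 3.11 to 8.88 CPM in the 13 KO mice. Cxcl9 measured 0.149, 0.787, 0.792, 1.02 and 1.15 CPM in the WT mice at rest, and its highest value was 3.56 CPM in an exercised WT mouse. Levels of Cxcl1 were 0.137 to 2.18 CPM in the 12 WT mice and 0.0603 to 2.51 CPM in the 13 KO mice, so that the genotypes overlapped in each of these genes.

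Cxcl14 (chr13:56288643-56296551), a chemokine made in epithelia and other tissues, was the member that differed by sex. Over the 12 females it measured 10.7 to 19.6 with a median of 14.1 CPM, and over the 13 males 19.8 to 32.1 with a median of 21.2 CPM. Each female was below each male, a separation seen in 1 of 27 members and in 0.269% of all tested genes. In a model with the 4 groups and sex, the log2 fold change of females over males was -0.67 (SE 0.097, edgeR adjusted p = 6.92e-05), and 10.0% of all tested genes were called. Without mouse 19, the highest male, it was -0.62 (SE 0.091, edgeR adjusted p = 9.06e-05). It had log2 fold changes of 0.07 for exercise (SE 0.16, edgeR adjusted p = 0.898) and -0.01 for genotype (SE 0.16, edgeR adjusted p = 1.00). Without mouse 19 these were -0.04 (SE 0.15) and -0.11 (SE 0.15).

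**Figure D5:**
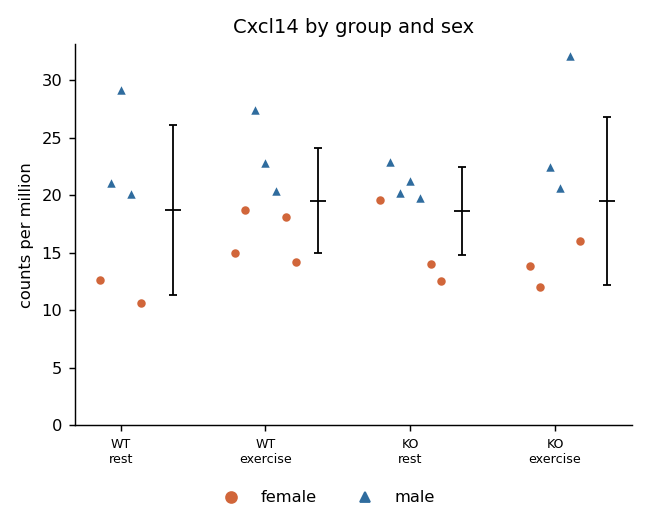
CPM of Cxcl14 (y axis, from 0) in each mouse of the 4 groups (x axis), with circles for females and triangles for males and the bar giving the group's mean ± SD over both sexes. In each group the females lay below the males, from 10.7 to 19.6 CPM against 19.8 to 32.1 CPM over all groups.

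The remaining tested members did not pass any of the 8 comparisons. Ccl11, second in level per kilobase of exon, measured 14.0 to 22.2 with a median of 16.5 CPM in WT at rest, 16.8 to 19.3 with a median of 17.7 CPM in WT after exercise, 12.3 to 23.3 with a median of 14.9 CPM in KO at rest and 13.7 to 23.4 with a median of 17.1 CPM in KO after exercise. Its log2 fold change for exercise was 0.09 (SE 0.094, edgeR adjusted p = 0.692). Cxcr4 had medians of 2.93 to 3.68 CPM over the 4 groups. Cxcl16, a membrane-bound ligand of Cxcr6, had a log2 fold change of -0.31 for exercise (SE 0.15, edgeR adjusted p = 0.240), with 18.3% of its exon bases in a gene on the opposite strand, and Cxcr6 one of 0.03 (SE 0.15, edgeR adjusted p = 0.960) and of -0.04 without mouse 19. Ccl24, which like Ccl11 binds the eosinophil receptor Ccr3, had one of -0.30 (SE 0.20, edgeR adjusted p = 0.418). Ccl8, Ccl28 and Ccr10 had group medians between 0.236 and 0.406 CPM.

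Other genes of the chemokine system gave a few calls for exercise, where 10.4% of all tested genes were called. Among 6 atypical and other receptors, Ackr1 alone was called, a receptor of venules that binds many inflammatory chemokines without signalling, with a log2 fold change of -0.74 (SE 0.15, edgeR adjusted p = 0.00158). Of 14 tested signalling genes the G protein subunit Gnai3 rose by 0.26 on the log2 scale (SE 0.071, edgeR adjusted p = 0.0150) and the leukocyte kinase subunit Pik3cg fell by 0.72 (SE 0.21, edgeR adjusted p = 0.0257), and the list's median was -0.04. Of 9 tested leukocyte adhesion genes Selp, the P-selectin of activated endothelium, fell by 1.12 (SE 0.17, edgeR adjusted p = 5.07e-05), with a list median of -0.29. The platelet chemokines Pf4 and Ppbp were not called.

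Of 15 tested cytokine and NF-kappaB feedback genes 3 were called for exercise, where 10.4% of all tested genes were. Tnf fell by 1.56 on the log2 scale (SE 0.36, edgeR adjusted p = 0.00382), the NF-kappaB inhibitor Tnfaip3 fell by 0.84 (SE 0.12, edgeR adjusted p = 1.19e-05) and the NF-kappaB inhibitor Nfkbia rose by 0.74 (SE 0.063, edgeR adjusted p = 3.29e-09). Of the marker lists, 1 of 2 tested neutrophil genes fell (S100a9), 1 of 5 lymphatic genes rose (Lyve1), 2 of 6 satellite cell genes fell (Pax7 and Myf5), and 0 of 6 dendritic cell, 0 of 1 tested B cell, 0 of 6 adipocyte and 0 of 5 blood genes were called. For genotype, none of these lists had a call but that of satellite cells (Pax7), where 0.269% of all tested genes were called.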

How the data were processed

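Soleus RNA from 25 mice was sequenced with reads of 75 bases. The authors deposited raw counts per gene, made per the submitters' processing notes with FastQC 0.11.5, STAR 2.5.3a and featureCounts 1.5.3 on mm10 with GENCODE release 15 gene models. Whether counting used the strand is not given in the sources used here. Symbols came from GENCODE release 21, and 233 of 52636 genes had none. The table held 0 columns of other samples.

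Counts were tested with edgeR 4.0.16 in R 4.3.3 (TMM scaling, filterByExpr with a minimum count of 10, quasi-likelihood F test, 1 mean per group for 4 groups), with Benjamini-Hochberg adjustment over all 16340 genes tested and calls at an adjusted p under 0.05. CPM are counts scaled to the TMM-adjusted library. The SE was taken from each F statistic, as the size of the log2 fold change over its square root. Totals ranged from 22671457 to 37431801 counts, and 1 CPM was 14.3 to 39.8 reads. The fit was tested on simulated data. Correlations used log2(CPM + 0.1) with 100000 two-sided permutations.

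Values were given for members called in any of the 8 comparisons, the 3 largest rises and 3 largest falls by log2 fold change for exercise and for genotype, and the 6 highest levels per kilobase. A member is not reported here although it is in the counts of members. In other lists, called genes, the highest gene and markers at 0 were named. The members were set by symbol alone, but they and the lists were chosen with earlier results of these data known. Alternatives were RLE scaling, library totals, 2 other filters, terms for sex or for runs of mouse numbers, each sex alone, robust fitting, DESeq2 1.42.0, leaving out each library, and, chosen after seeing the data, leaving out mice 15 and 19, or mice 11, 13 and 19, together. A member's unusually high or low mouse in a group of 5 to 7 was found by the ratio of its gap to the group's range against Dixon's 95% critical value.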

Additional observations from a re-analysis of the deposited data

Results flagged for a closer look

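In 19 of 104 groups of a tested member, the highest mouse lay farther from the next than Dixon's 95% critical value allows. For independent, normally distributed values chance gives about 1 in 20 groups, and this rate was not checked for these CPM. Of the 19, 6 were mouse 19 among the exercised KO mice, with Ccl2 at 10.6 CPM (next mouse 0.436), Ccl7 at 3.6 (0.211), Ccl9 at 29.1 (13.3), Ccr1 at 5.43 (0.842), Ccr2 at 15.7 (4.96) and Cxcl1 at 2.51 CPM (0.319).

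Mouse 5 among the exercised WT mice was such a value in Ccl8 at 1.12 CPM, Ccr2 at 8.94, Cxcl16 at 3.22 and Cxcl9 at 3.56 CPM. Its summed macrophage genes were the highest after exercise, at 271 CPM, as were its summed dendritic cell genes, at 168 CPM. Mouse 7 among the rested KO mice was one in Ccr2 at 23.5 CPM, Cx3cl1 at 8.88, Cxcl10 at 0.561 and Cxcr4 at 6.0 CPM. Of the rested mice it had the highest summed macrophage (362 CPM), dendritic cell (162), fibroblast (5640) and blood genes (464 CPM). Its summed muscle fiber genes were the lowest at rest, at 78800 CPM. The part of these cells in the values was not tested.

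The other 5 were Ccl27a in mouse 25 (exercised WT) at 2.91 CPM, Ccl7 in mouse 16 (exercised WT) at 0.384 CPM, Ccl8 in mouse 11 (rested WT) at 0.535 CPM, Ccr9 in mouse 20 (rested WT) at 1.42 CPM and Cxcl11 in mouse 2 (rested KO) at 1.55 CPM.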

How the results depend on the processing

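Of the 7 members called for exercise, the same 7 were called with RLE scaling, a sex term, robust fitting and DESeq2. With library totals 2 were called (5.67% of all tested genes, against 10.4%), with no filter 3 of 51 (4.27%), in females alone 1 (3.03%), in males alone 2 (6.01%), and 3 to 9 when each mouse was left out (9.32% to 11.1%), the most without mouse 19. Without mice 15 and 19, 8 were called (10.7%), and without mice 11, 13 and 19, 4 (8.45%), when Ccl9 was at 0.87 (edgeR adjusted p = 0.0515). Within WT mice the count of 1 became 0 with library totals, without mice 11, 13 and 19 and in each sex alone (0 in females, 0 in males), and 2 with a sex term, a term for runs of mouse numbers, DESeq2 or mice 15 and 19 left out together, with 1 to 2 over single mice left out. Within KO mice the count of 2 became 1 with library totals, 0 in females alone and 4 without mice 15 and 19 or without mice 11, 13 and 19, with 2 to 4 over single mice left out. For sex the count of 1 became 3 with library totals and 2 with no filter or without mice 11, 13 and 19, with 1 to 2 over single mice left out. Genotype, at rest, after exercise or over both, and the difference in response gave 0 in each of these settings.

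Ccl9, Cx3cr1 and Cxcl12 were called for exercise whichever single mouse was left out, but Ccl9 lost its call without mice 15 and 19 (0.71, edgeR adjusted p = 0.0502) and with library totals (0.94, edgeR adjusted p = 0.0529). Cxcl10 ranged from 0.94 to 1.59 on the log2 scale and Cxcl11 from 0.56 to 0.89, and over the 25 mice left out singly Ccl27a lost its call in 6, Cxcl10 in 15, Ccr9 in 17 and Cxcl11 in 19. Between genotypes Ccl2 ranged from -0.31 (without mouse 19) to 1.34 and was -0.28 without mice 15 and 19, Cxcl1 ranged from -0.95 (without mouse 19) to 0.20 (without mouse 13), Cxcl9 from -0.37 to 0.043 (without mouse 5), and Cx3cl1 was 0.017 in males alone. The cause was not tested. No paired analysis was possible because each mouse has a number of its own. Members under 1 CPM rest on few reads per mouse. Differences among them smaller than their SE, which holds the spread between mice, were not detectable. Some larger ones also missed the threshold, such as Cxcl10 for exercise without mouse 19 (0.94, SE 0.37, edgeR adjusted p = 0.121).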
